A study of Mus musculus with 6 samples.

Results

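The autophagy machinery was described as 40 genes chosen by function, from the kinase complex that starts an autophagosome to the proteins that fuse it with a lysosome. The choice was made with earlier results of these data known. All 40 were found among the 22192 gene symbols of the count table, and all 40 were abundant enough to be tested among 11686 genes. The RNA came from RAW 264.7 cells, a macrophage-like line established from BALB/c mice. The tested group held 3 libraries from cells kept for 24 h in medium with 200 µg/mL ASPS-A1, a column-purified fraction of the acidic polysaccharides of Acanthopanax senticosus leaves. The other group held 3 libraries labelled control, for which the labels give no vehicle and no time in culture. Both groups are the same single cell line, and nothing in the labels says that libraries of a group came from separate cultures, so p-values measure only the spread between these libraries.

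In autophagy a double membrane grows around cytoplasm, damaged organelles or microbes, closes and delivers them to lysosomes. The ULK1 kinase complex starts it, a class III phosphoinositide 3-kinase built on Beclin 1 marks the growing membrane, and lipid is supplied by ATG9 vesicles and ATG2 transfer proteins. Enzymes that resemble the ubiquitin system then attach small ATG8 proteins (the LC3 and GABARAP families) to the membrane, where cargo receptors such as p62 bind them. In macrophages the same machinery serves the clearance of intracellular bacteria and LC3-associated phagocytosis.

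Libraries held 19989318 to 22179544 counts with ASPS-A1 and 23113454 to 26137127 in control. Of 9 macrophage markers, 8 were at 1 CPM or more on average (CPM, a gene's count scaled to a common depth with TMM factors), and their summed level was 3077 to 3190 CPM with ASPS-A1 and 2190 to 2211 CPM in control. The T-cell, epithelial, fibroblast and neutrophil lists, with 4 markers each, each summed to under 1 CPM in every library, with Cd3e, Epcam and S100a9 at 0 in all 6. Summed levels of endothelial markers were 12.6 to 13.9 CPM with ASPS-A1 and 6.85 to 8.15 CPM in control. Dendritic-cell markers summed to 3.01 to 4.29 CPM with ASPS-A1 and 4.08 to 4.15 CPM in control. The part of these markers in the results was not tested, and in such bulk RNA fewer cells of a type and less RNA per cell cannot be told apart.

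Autophagy transcripts did not move as a block. Genes of the early steps (ULK1 complex, the lipid kinase complexes, ATG2 proteins) mostly fell with ASPS-A1, several conjugation enzymes were slightly higher, and the receptor gene Sqstm1 more than doubled. Of the 40 genes, 12 rose and 17 fell, which leaves 11 without a call (edgeR quasi-likelihood test, adjusted p under 0.05 over all genes tested). The treatment moved much of the transcriptome: 32.4% of all genes tested rose and 33.0% fell, against 30% and 42.5% of the autophagy genes, so the share that rose was near the background. The median log2 fold change was −0.11 for the 40 genes and −0.021 for all genes tested. At 1.5-fold or more with groups that did not overlap, 1 autophagy gene was higher and 7 were lower, where the same rule took 12.6% of all genes as higher and 14.1% as lower. Under upper-quartile scaling 9 rose and 20 fell, where 29.4% of all genes rose and 36.8% fell. Scaling by library totals alone moved the median of all genes by −0.195 on the log2 scale, and 5 autophagy genes then rose and 25 fell, beside 21.6% and 46.7% of all genes; the changes below are on the TMM scale and are to be read against that shift.

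**Figure D1:**
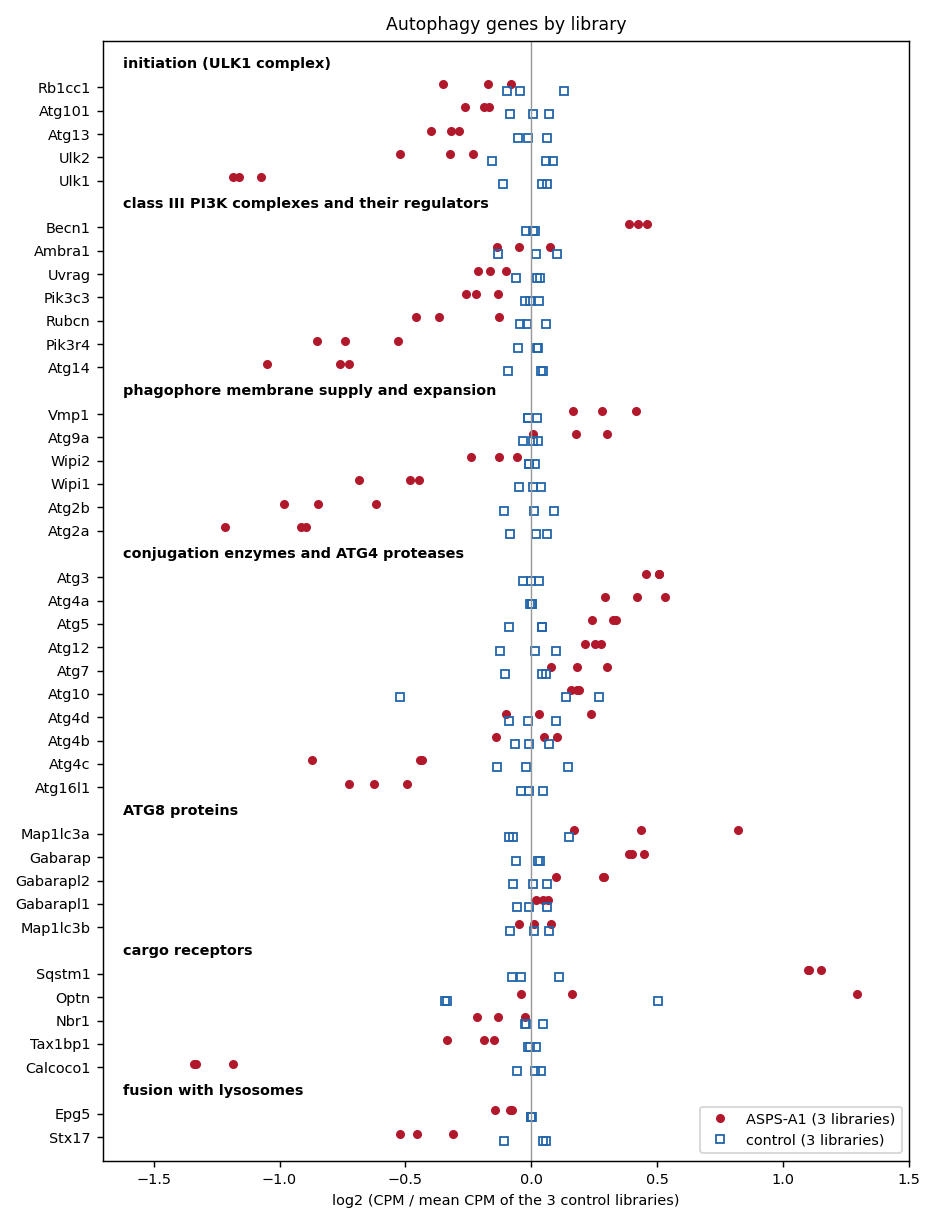
Each row is an autophagy gene and each point a library, placed at log2 of its CPM over the mean of the 3 control libraries; filled circles are ASPS-A1 and open squares control. Ulk1, Atg2a and Calcoco1 lie far to the left and Sqstm1 far to the right of their controls, while Map1lc3b, Gabarapl1 and Atg4b overlap with control.

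Initiation genes were lower with ASPS-A1. Ulk1, the kinase that starts autophagosome formation, had 20.4, 20.8 and 22.0 CPM with ASPS-A1, against 43.0, 48.6 and 47.8 CPM in control. Every treated library was below every control library, and the spread within each group was small beside the gap. Ulk1 (chr5:110784488-110810097 in GENCODE M21, GRCm38; the build of the counts is not given in the sources used here) fell 2.20-fold, with a log2 fold change of −1.14 ± 0.08 (SE, adjusted p = 3.10e-17, edgeR). Its paralog Ulk2 fell less, with a log2 fold change of −0.35. Atg13, the adaptor subunit and the most abundant gene of the complex by CPM, had 38.8, 35.9 and 38.0 CPM with ASPS-A1, against 49.5, 45.7 and 46.9 CPM in control. Its groups did not overlap, and its log2 fold change was −0.33 ± 0.07 (SE).

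Of the 5 genes of the ULK1 complex, 4 fell, or 80% against 33.0% of all genes, and none rose under any alternative tried. The count that fell was 3 with DESeq2 (23.6% of all genes) and with the length and GC offsets described below (30.4%). It was 1 with glmTreat, a test against a 1.5-fold change (7.53%), and 5 with upper-quartile scaling (36.8%) or library totals (46.7%). With the offsets Ulk2 had −0.11 (adjusted p = 0.237, edgeR) and Rb1cc1 0.018 (adjusted p = 0.876, edgeR). Atg101, which stabilises Atg13, stood at −0.21 on the log2 scale (adjusted p = 0.0420, edgeR). That call ended when ASPS-A1 replicate 1 or 3, or control replicate 2 or 3, was left out (adjusted p of 0.0652 to 0.144). Rb1cc1, the scaffold also called FIP200, stood at −0.19 (adjusted p = 0.0650), and passed the threshold without ASPS-A1 replicate 1 (adjusted p = 0.0352) or control replicate 3 (adjusted p = 0.0426). The 5 genes summed to 126 ± 5.71 CPM with ASPS-A1 and 175 ± 3.82 CPM in control (SD, n = 3 each).

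The class III lipid kinase genes were split between Becn1 and its partners. Becn1, which encodes the scaffold Beclin 1, had 102.6, 105.3 and 100.01 CPM with ASPS-A1, against 77.2, 75.4 and 76.9 CPM in control. All 3 treated libraries were above all 3 controls, and Becn1 rose 1.34-fold (log2 fold change 0.42 ± 0.05 SE, adjusted p = 3.52e-09, edgeR). Its annotated exons overlap those of Cntd1 over 43.9% of their length, and Cntd1 itself had 4 to 19 counts in any library. The effect of the overlap on the Becn1 count was not tested. Atg14, the subunit that directs the kinase to autophagosome formation, had 19.5, 15.5 and 19.0 CPM with ASPS-A1, against 30.2, 33.2 and 33.0 CPM in control. Pik3r4, the regulatory subunit, had 16.9, 14.7 and 13.6 CPM with ASPS-A1, against 23.6, 24.9 and 24.96 CPM in control. Neither gene's groups overlapped, and the highest treated value of each was well under its lowest control value.

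Atg14 (chr14:47540893-47570649) fell 1.78-fold and Pik3r4 (chr9:105642978-105687657) 1.62-fold, with adjusted p of 3.04e-11 and 1.82e-08 (edgeR). Pik3c3, the catalytic subunit, stood at −0.20 (adjusted p = 0.0259), a call that was lost without ASPS-A1 replicate 1 (adjusted p = 0.10001) or control replicate 3 (adjusted p = 0.0734). Uvrag, the subunit of the endosomal form of the kinase, had −0.16 (adjusted p = 0.0218), and lost the call without ASPS-A1 replicate 2 (adjusted p = 0.0522), control replicate 1 (adjusted p = 0.0794) or control replicate 2 (adjusted p = 0.0696). Rubcn, whose product Rubicon restrains that form and serves LC3-associated phagocytosis, fell (−0.31), and Ambra1, a regulator of Beclin 1, had −0.034 (adjusted p = 0.706). Of these 7 genes 1 rose and 5 fell. After correction by offsets for length and GC, described below, 2 rose and 2 fell, and Uvrag had 0.097 (adjusted p = 0.121).

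Genes that supply and expand the membrane moved apart. Atg2a and Atg2b encode rod-shaped proteins that carry lipid into the growing membrane, and both fell. Atg2a had 13.1, 10.6 and 13.2 CPM with ASPS-A1, against 23.2, 24.97 and 25.7 CPM in control. Atg2b had 45.2, 38.5 and 35.1 CPM with ASPS-A1, against 64.3, 69.7 and 73.7 CPM in control. Treated and control libraries stood apart in both genes. Atg2a (chr19:6241668-6262335) fell 2.00-fold (a difference of −1.0002 ± 0.10 SE on the log2 scale) and Atg2b (chr12:105616136-105685211) 1.75-fold (−0.80 ± 0.07 SE), with an adjusted p of 4.85e-12 and 4.69e-12 (edgeR).

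Vmp1, an endoplasmic reticulum scramblase and the most abundant of these 6 genes, had 145, 122 and 132 CPM with ASPS-A1, against 108, 110.3 and 107 CPM in control. Its groups did not overlap, and it rose 1.22-fold, a call that ended with library totals alone (0.097, adjusted p = 0.130). The annotated exons also contain the microRNA gene Mir21a. Wipi1, which binds the lipid that the kinase makes, fell (−0.54), and Wipi2, which recruits Atg16l1, had −0.14 (adjusted p = 0.0539). Wipi2 passed the threshold without ASPS-A1 replicate 2 (adjusted p = 0.0483) or 3 (adjusted p = 0.0240). Atg9a, the scramblase of the seed vesicles, had 0.17 (adjusted p = 0.0305), with 1 treated library at 48.9 CPM, within the control range of 47.6 to 49.6 CPM. Its call ended without ASPS-A1 replicate 1 (adjusted p = 0.0714) or 2 (0.091 on the log2 scale, adjusted p = 0.259), as it did without control replicate 1 (adjusted p = 0.0733) or 3 (adjusted p = 0.105), and its sign turned with library totals alone (−0.028). Atg9a shares 32.6% of its exon length with its neighbours, among them Ankzf1, which stood at −0.15 (adjusted p = 0.137). These 6 genes held 2 risen and 3 fallen genes, against 1 and 4 with upper-quartile scaling and 0 and 4 with library totals.

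**Figure D2:**
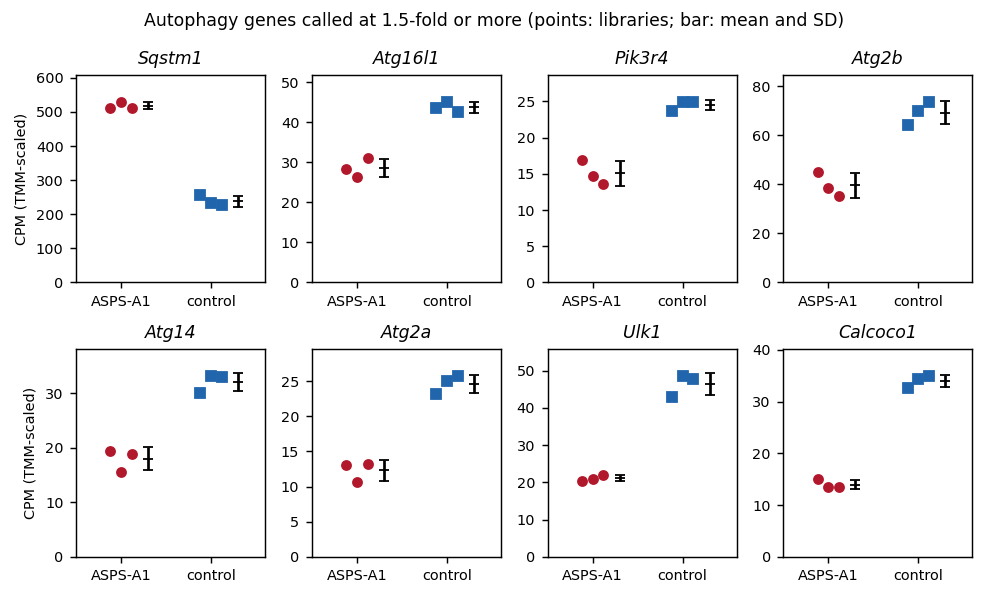
CPM (TMM-scaled, linear axis from 0) of the 8 autophagy genes called at 1.5-fold or more with groups that do not overlap; points are libraries, and bars are the mean and SD of 3. Sqstm1 averages 518 CPM with ASPS-A1 and 239 CPM in control; the other 7 are lower with ASPS-A1.

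Of the 10 conjugation genes, 5 rose modestly with ASPS-A1, Atg16l1 and Atg4c fell, and 3 did not pass the threshold. With library totals alone 2 rose and 3 fell. Atg12, the ubiquitin-like protein joined to Atg5, was the most abundant, with 93.7, 91.1 and 95.2 CPM with ASPS-A1, against 79.4, 84.2 and 72.1 CPM in control. Its acceptor Atg5 had 56.6, 60.4 and 60.1 CPM with ASPS-A1, against 45.1, 49.3 and 49.3 CPM in control. Atg7, the activating enzyme of both conjugation branches, had 42.5, 49.7 and 45.7 CPM with ASPS-A1, against 41.5, 37.4 and 41.9 CPM in control. In Atg12 and Atg5 the groups were clearly apart, while the lowest treated Atg7 library was barely above the highest control. Atg12 had a log2 fold change of 0.25 ± 0.06 (SE, adjusted p = 0.000224), Atg5 0.30 ± 0.07 (SE, adjusted p = 8.51e-05) and Atg7 0.19 ± 0.07 (SE, adjusted p = 0.0203, edgeR). The Atg7 call ended without ASPS-A1 replicate 2 (adjusted p = 0.152) or control replicate 2 (adjusted p = 0.137), and its value was −0.0074 with library totals. The calls of Atg12 (0.055, adjusted p = 0.414) and Atg5 (0.10, adjusted p = 0.157) also ended with library totals.

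Atg3, the enzyme that transfers ATG8 proteins to lipid, had the largest rise of the conjugation genes, 1.40-fold (64.0 ± 1.37 CPM with ASPS-A1 and 45.5 ± 0.969 CPM in control, SD, n = 3 each). Of the 4 ATG4 proteases, which trim ATG8 proteins and free them from membranes, Atg4a rose (0.42), Atg4c fell (−0.57), and Atg4b (0.0082, adjusted p = 0.930) and Atg4d (0.059, adjusted p = 0.703) did not pass the threshold. The annotation also lists a pseudogene of Atg4a, and how reads that fit both were assigned is not given. Atg4d shares 19.3% of its exon length with Kri1, which had 22.0 CPM with ASPS-A1 and 21.5 CPM in control. Atg10, the transfer enzyme for Atg12, had 5.91 CPM with ASPS-A1 and 5.22 CPM in control (0.18, adjusted p = 0.394). Atg16l1, which places the Atg12–Atg5 conjugate on the membrane, had 28.4, 26.5 and 31.1 CPM with ASPS-A1, against 43.5, 45.2 and 42.6 CPM in control. Its groups were well apart, and Atg16l1 (chr1:87755870-87792428) fell 1.53-fold (−0.61 ± 0.08 SE, adjusted p = 1.42e-09). The median of the 10 genes was 0.18 with TMM factors and turned to −0.014 with library totals.

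The palindrome CACGTG, the E-box at the core of the element bound by the lysosomal regulator TFEB, was searched in RefSeq promoters (250 bases before to 50 after each start, GRCm38.p6). It was found in the promoters of 5 of the 33 autophagy genes in the table (15.2%), against 8.09% of all 27025 genes there. The genes were Atg3, Atg5, Atg7, Atg14 and Rubcn, so 3 of them were conjugation enzymes that rose and 2 were lipid kinase genes that fell. Stretches of 120 bases before the start are shown, 5′ to 3′ on the gene's strand, for the 3 that rose and for Rubcn, a gene that fell, with the E-box in capitals; the Atg14 match spans its start. They lie at chr16:45158690-45158809 (+), chr10:44268219-44268338 (+), chr6:114670907-114671026 (+) and chr16:32868392-32868511 (−). Those of Atg7 and Rubcn precede starts well inside the gene as GENCODE annotates it, and the Atg14 start also lies well inside its gene.
Atg3: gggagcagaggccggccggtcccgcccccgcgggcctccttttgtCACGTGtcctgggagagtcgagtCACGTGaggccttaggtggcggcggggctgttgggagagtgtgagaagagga
Atg5: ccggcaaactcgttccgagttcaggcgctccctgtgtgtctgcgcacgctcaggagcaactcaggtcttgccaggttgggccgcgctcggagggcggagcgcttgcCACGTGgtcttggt
Atg7: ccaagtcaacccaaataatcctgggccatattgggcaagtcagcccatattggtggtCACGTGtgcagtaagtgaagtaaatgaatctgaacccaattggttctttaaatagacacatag
Rubcn: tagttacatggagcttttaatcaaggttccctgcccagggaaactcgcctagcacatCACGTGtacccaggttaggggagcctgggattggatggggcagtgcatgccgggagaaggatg

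Atg3 alone of these had 2 matches. The core of the antioxidant response element (TGACNNNGC, both strands) was found in promoters of Atg13, Map1lc3b, Tax1bp1, Ulk2 and Vmp1, which is also 15.2% of the 33 genes, against 13.99% of all genes. The forkhead word GTAAACA and the C/EBP-ATF word TGATGNAAN had no match in the windows of the 33 genes, against 4.05% and 4.50% of all genes. A match is a description of the sequence, and a window without one says nothing of the factor.

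Among the ATG8 genes, Gabarap rose and the usual LC3 readout gene did not pass the threshold. Gabarap, the most abundant, had 295, 305 and 292 CPM with ASPS-A1, against 227, 228 and 214 CPM in control. Its treated libraries were all above its controls, and it rose 1.33-fold (0.41 ± 0.05 SE, adjusted p = 1.11e-10, edgeR). Map1lc3b, which encodes the LC3B protein used to count autophagosomes, had 102, 110.8 and 106 CPM with ASPS-A1, against 106, 110.1 and 99.0 CPM in control. Its groups overlapped, and its log2 fold change was 0.014 ± 0.05 (SE, adjusted p = 0.834). Gabarapl1 also overlapped between groups (0.044, adjusted p = 0.446), and Gabarapl2 rose (0.23), a call that ended with library totals alone (0.032, adjusted p = 0.691). Gabarapl1 shares 28.3% of its exon length with 1700101I11Rik, for which no counts are given.

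Map1lc3a had only 71 to 98 counts in each library with ASPS-A1 and 74 to 83 in control (log2 fold change 0.50, adjusted p = 0.0419). That call ended without ASPS-A1 replicate 2 (0.30, adjusted p = 0.285) or 3 (adjusted p = 0.0551) and without control replicate 2 (adjusted p = 0.0939) or 3 (adjusted p = 0.106). Per kilobase of the longest transcript, a scale on which genes can be compared, the mean levels with ASPS-A1 were 219.9 CPM per kb for Gabarap, 80.2 for Gabarapl1, 40.3 for Map1lc3b, 36.1 for Gabarapl2 and 3.84 for Map1lc3a. In control they were 165 CPM per kb for Gabarap, 77.8 for Gabarapl1, 39.9 for Map1lc3b, 30.8 for Gabarapl2 and 2.71 for Map1lc3a. The order of these levels was therefore the same in both groups. Of the 5 genes 3 rose and 0 fell, but with library totals alone 1 rose and 2 fell (Map1lc3b, −0.18; Gabarapl1, −0.15), and with the length and GC offsets 0 rose and 1 fell (Gabarapl1, −0.14).

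Cargo receptors held both the largest rise and the largest fall of the machinery. Sqstm1 encodes p62, which binds ubiquitinated cargo and LC3, is itself degraded by autophagy, and is a known target of NRF2. The NRF2 gene Nfe2l2 fell (−0.47, adjusted p = 3.89e-09, edgeR), and the part of NRF2 in the Sqstm1 level was not tested. Sqstm1 had 513, 530.3 and 511 CPM with ASPS-A1, against 257, 232 and 226 CPM in control. Every treated library held about double the control level, and Sqstm1 (chr11:50199366-50210827) rose 2.17-fold (1.12 ± 0.05 SE, adjusted p = 3.07e-24, edgeR). It shares 17.3% of its exon length with Mrnip, which had 5.52 CPM with ASPS-A1 and 5.68 CPM in control. Calcoco1, a receptor for endoplasmic reticulum and Golgi membranes, had 14.9, 13.4 and 13.5 CPM with ASPS-A1, against 32.7, 34.4 and 35.0 CPM in control. Its groups were as far apart in the other direction, and Calcoco1 (chr15:102706777-102722178) fell 2.43-fold (−1.28 ± 0.09 SE, adjusted p = 3.22e-17).

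Tax1bp1, a receptor that also restrains inflammatory signalling, fell slightly (−0.22), with 118 ± 7.84 CPM with ASPS-A1 and 138 ± 1.66 CPM in control (SD, n = 3 each). Nbr1, a p62 partner, had −0.12 (adjusted p = 0.0557), and passed the threshold without ASPS-A1 replicate 1 (adjusted p = 0.0173). Optn, which encodes optineurin, was scarce, with 28, 62 and 29 counts with ASPS-A1, against 27, 28 and 55 in control. In each group 1 library was about double the others, and the change (0.58, adjusted p = 0.140) passed the threshold without ASPS-A1 replicate 1 (0.82, adjusted p = 0.0471) or control replicate 3 (0.92, adjusted p = 0.0489), while without ASPS-A1 replicate 2 it was 0.046 (adjusted p = 0.928). Sqstm1 alone carried the sum of the 5 receptors. That sum was 743 ± 3.23 CPM with ASPS-A1 and 511 ± 15.6 CPM in control, and without Sqstm1 it was 225 ± 12.1 CPM with ASPS-A1 and 272 ± 2.40 CPM in control (SD, n = 3 each).

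Of the 2 genes of the last step, Stx17, the fusion SNARE of the closed autophagosome, fell (−0.43, adjusted p = 0.000315). Epg5, a tether for that fusion and the more abundant of the pair by CPM, had 27.7, 26.6 and 27.9 CPM with ASPS-A1, against 29.4, 29.3 and 29.5 CPM in control. The Epg5 groups did not overlap, but the difference did not pass the threshold (−0.10 ± 0.08 SE, adjusted p = 0.266). With the length and GC offsets Stx17 had −0.22 (adjusted p = 0.0558) and Epg5 0.18 (adjusted p = 0.0378).

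Ratios of paired genes within a library do not depend on how libraries are scaled. The 8 pairs were chosen by function, with earlier results of these data known. A two-sided exact permutation test compared their ratios of counts, and its smallest possible p is 0.1 with 3 libraries a group. Ulk1 was the minor paralog with ASPS-A1, at 0.672, 0.834 and 0.772 of the Ulk2 count, against 1.13, 1.30 and 1.49 in control. The ranges did not meet, and the ratio was 1.72-fold lower (exact p = 0.1, adjusted p = 0.114 over the 8 pairs). Atg14 relative to Uvrag, the subunits that define the autophagic and the endosomal lipid kinase, was 0.295, 0.254 and 0.3003 with ASPS-A1, against 0.416, 0.462 and 0.487 in control. This ratio was 1.61-fold lower with the same exact p.

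Sqstm1 stood at 5.31, 6.25 and 5.69 times the Nbr1 count with ASPS-A1, against 2.66, 2.29 and 2.34 in control. The ranges lay far apart, a 2.37-fold difference. The ratios Wipi1/Wipi2 (1.32-fold lower), Atg4b/Atg4a (1.33-fold lower), Map1lc3a/Map1lc3b (1.3795-fold higher) and Gabarapl1/Gabarapl2 (1.13-fold lower) did not overlap either, also with an exact p of 0.1 and an adjusted p of 0.114. The groups overlapped for Atg2a over Atg2b, whose ratio was 0.289, 0.275 and 0.378 with ASPS-A1, against 0.362, 0.358 and 0.349 in control (exact p = 0.4), a log2 difference of −0.20. After the length and GC offsets the Atg4b/Atg4a difference was −0.060 on the log2 scale (exact p = 0.6), against −0.41 before. With the offsets the exact p was 0.4 for Map1lc3a/Map1lc3b and for Gabarapl1/Gabarapl2. How many other gene pairs would not overlap between groups was not counted, where 32.4% of all genes rose and 33.0% fell.

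**Figure D3:**
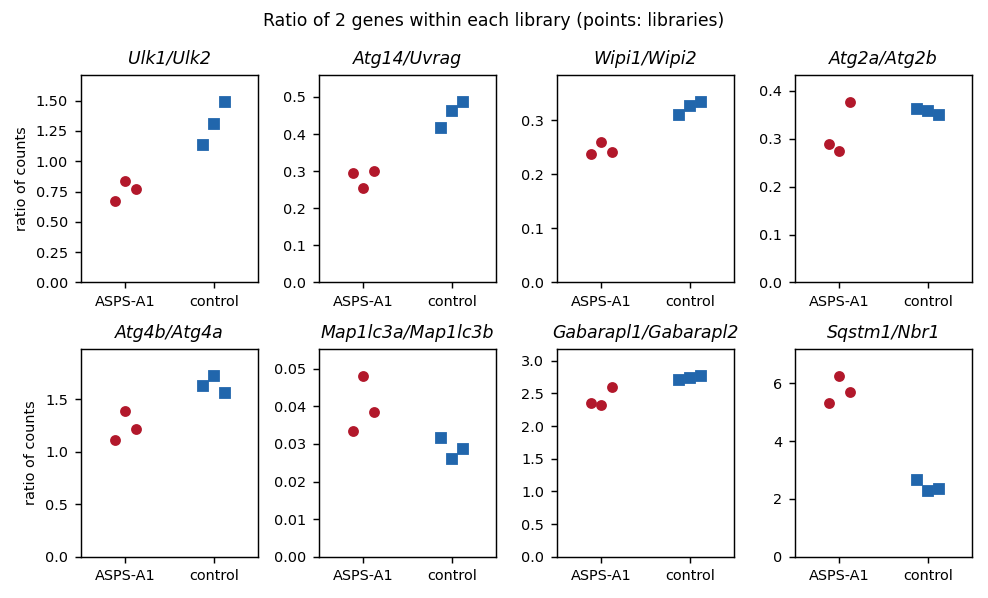
Ratio of raw counts of 2 genes in each library, on linear axes from 0, with 3 ASPS-A1 and 3 control libraries as points. Ulk1/Ulk2 and Atg14/Uvrag are lower and Sqstm1/Nbr1 higher with ASPS-A1, while Atg2a/Atg2b overlaps.

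Fold changes in this comparison moved with transcript length, which touches the division between early and late steps. Over 11201 tested genes with an annotated transcript, the Spearman correlation of log2 fold change and length was −0.387, and over the 40 autophagy genes it was −0.484 (descriptions across genes that share libraries). The median log2 fold change of all genes was 0.48 in the bin of shortest transcripts of 10 (195 to 1280 nt), against −0.27 in the bin of longest ones (6654 to 106824 nt). The median transcript was 1677 nt for the ATG8 genes and 5213 nt for the ULK1 complex. With offsets that remove trends on length and GC content, 13 autophagy genes rose and 13 fell (32.5% each), near the shares of all genes under the same offsets (32.5% and 30.4%). Their median log2 fold change was 0.019.

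The 8 genes called at 1.5-fold or more kept an adjusted p under 0.05 with the offsets, but Atg16l1, Atg2b and Pik3r4 then changed by less than 1.5-fold. With the offsets Sqstm1 had a log2 fold change of 1.12, Calcoco1 −1.20, Ulk1 −0.83, Atg14 −0.71, Atg2a −0.65, Atg16l1 −0.55, Atg2b −0.52 and Pik3r4 −0.46. Becn1 had 0.57 and Atg12 0.42. Gabarap had 0.086 (adjusted p = 0.0570), Gabarapl2 −0.049 (adjusted p = 0.494), Ulk2 −0.11 (adjusted p = 0.237) and Rubcn −0.023 (adjusted p = 0.832). Ambra1 (0.25), Atg4b (0.18) and Atg4d (0.36) were higher past the threshold. What lies behind the length trend was not tested.

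**Figure D4:**
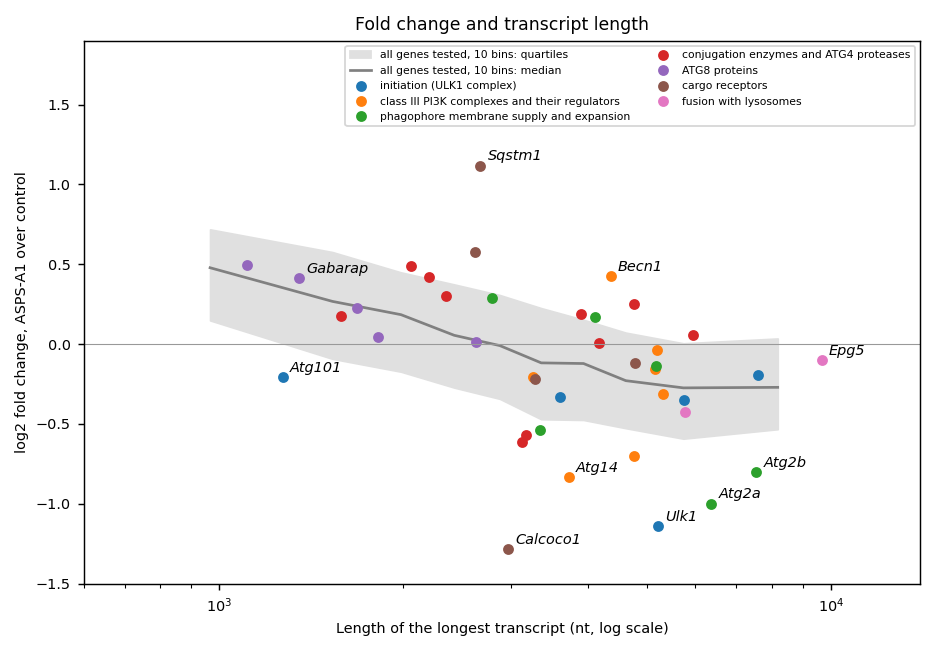
log2 fold change (ASPS-A1 over control) against the length of the longest transcript (nt, log axis) for the 40 autophagy genes, coloured by role, over the median (line) and quartiles (band) of all tested genes in 10 length bins. Sqstm1, Becn1 and Atg12 are among the genes above the band, and Ulk1, Atg2a, Atg2b, Atg14 and Calcoco1 are among those below it.

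**Figure D5:**
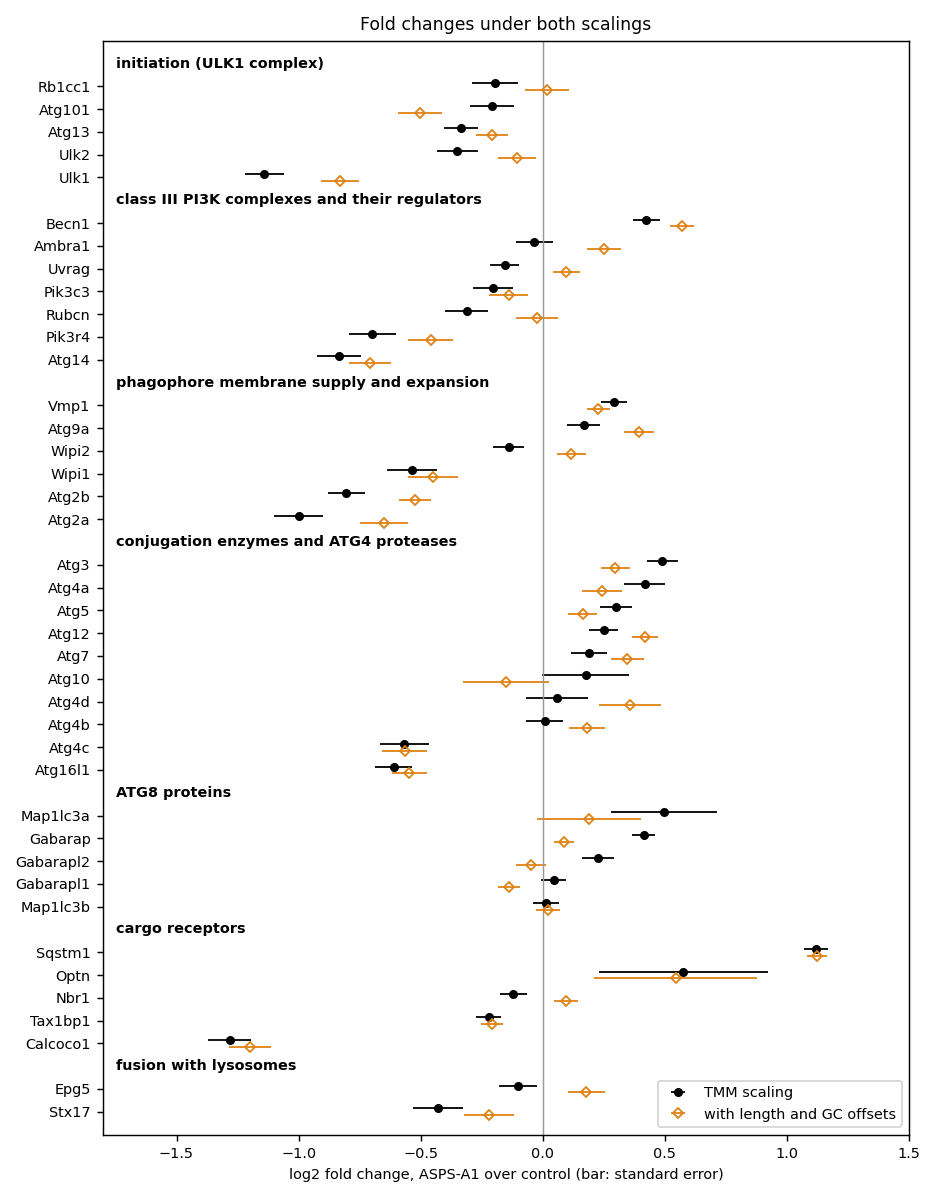
log2 fold change (ASPS-A1 over control) with its standard error for each autophagy gene, under TMM scaling (filled circles) and with the length and GC offsets (open diamonds). Sqstm1 and Calcoco1 hardly move, while Gabarap, Gabarapl1 and Gabarapl2 shift to the left and Ambra1, Uvrag and Epg5 turn positive.

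Genes around the machinery moved both ways, and their counts stand against 32.4% risen and 33.0% fallen among all genes, 21.6% and 46.7% with library totals, and 32.5% and 30.4% with the offsets. Of 28 tested genes of nutrient and energy sensing upstream of ULK1, 11 rose and 11 fell, against 6 and 17 with library totals alone and 7 and 10 with the offsets. Rheb, the GTPase that activates mTORC1, rose 1.83-fold (138 ± 0.870 CPM with ASPS-A1 and 75.4 ± 4.99 CPM in control, SD, n = 3 each). Prkab2, a subunit of the energy sensor AMPK, fell 3.77-fold, while the AMPK subunit genes Prkab1 (0.19) and Prkag1 (0.47) rose on the log2 scale. Deptor, an inhibitor of mTOR, fell 3.47-fold. Rragb, a GTPase that activates mTORC1, also fell 3.47-fold, and Rptor, an mTORC1 subunit, fell (−0.44). Mlst8 (−0.28) and Rragc (−0.38) fell too, and Akt1s1, an mTORC1 inhibitor, rose (0.32). The Ragulator genes Lamtor1 (0.14), Lamtor2 (0.37), Lamtor3 (0.497), Lamtor4 (0.59) and Lamtor5 (0.54) rose. The mTORC1 inhibitors Ddit4 (−1.497), Sesn1 (−0.998) and Sesn2 (−0.986) fell. With the offsets Lamtor4 had 0.17 and Lamtor5 0.077 (adjusted p = 0.171, edgeR). Of 15 further core autophagy genes 3 rose and 7 fell, against 1 and 10 with library totals and 5 and 7 with the offsets. Sh3glb1, a membrane-curving partner of Beclin 1, rose 1.27-fold, and Tecpr1, which joins autophagosomes to lysosomes, fell 2.07-fold.

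Of 19 tethering and fusion genes of late endosomes and lysosomes, 5 rose and 7 fell, against 3 and 11 with library totals. Vamp8, the lysosomal SNARE that pairs with Stx17, rose 1.37-fold, and the adaptor Plekhm1 fell 1.81-fold. Rab7b, a late-endosomal GTPase, had 22.3 ± 2.07 CPM with ASPS-A1 and 77.9 ± 1.92 CPM in control (SD, n = 3 each), which is 3.50-fold lower. Of 23 other selective receptors 7 rose and 11 fell, against 3 and 15 with library totals. Among mitophagy receptors Fkbp8 rose 1.46-fold, while Bnip3 fell 3.82-fold (95.9 ± 5.39 CPM with ASPS-A1 and 366 ± 23.7 CPM in control, SD, n = 3 each). Pink1, the kinase that marks damaged mitochondria, and Ncoa4, the ferritin receptor, fell 2.28-fold and 1.54-fold. Ncoa4 had 181 ± 5.83 CPM with ASPS-A1 and 278 ± 0.620 CPM in control (SD, n = 3 each).

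Of 16 transcription factors reported to act on autophagy genes, 5 rose and 8 fell. The count that rose was 3 with upper-quartile or library-total scaling, with no filter on low counts, with thinned counts and without ASPS-A1 replicate 2 or control replicate 3. Atf4, the effector of the integrated stress response, rose 2.80-fold to 558 ± 7.52 CPM, against 199 ± 26.1 CPM in control. Its target Ddit3 rose 4.66-fold and Myc 4.45-fold, while Foxo3, a forkhead factor, fell 1.97-fold. Tfeb, whose element holds the E-box searched above, fell (−0.49, adjusted p = 2.82e-05, edgeR). Its relative Mitf fell too (−0.57), while Tfe3 rose (0.14, adjusted p = 0.0329, edgeR). In the settings named above where 3 factors rose, these were Atf4, Ddit3 and Myc, so the Tfe3 call was lost there. Which factor acts at the E-boxes was not tested. Of 6 NADPH oxidase subunits used in LC3-associated phagocytosis, 4 rose and 0 fell, against 1 fallen with upper-quartile scaling, with library totals and with the offsets. Cybb, the catalytic subunit, had 712 ± 38.5 CPM with ASPS-A1 and 485 ± 15.5 CPM in control, and Cyba had 202 ± 16.4 CPM with ASPS-A1 and 99.9 ± 1.91 CPM in control (SD, n = 3 each).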

How the data were processed

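Polyadenylated RNA of 6 libraries was sequenced. The authors deposited 1 table of raw counts per gene symbol, without normalization. Per the submitters' processing notes, the tools included HTSeq 0.9.1 and HISAT2 2.1.0, as well as fastp 0.22.0 and DESeq 1.38.3. Not given in the sources used here are the build, the gene models, whether strand was used, and how multi-gene reads were counted. Libraries were grouped by their treatment label. All 6 deposited columns were used.

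Genes were kept with filterByExpr (minimum count 10, minimum total 15), scaled by TMM and fitted by the robust quasi-likelihood model of edgeR 4.0.16 in R 4.3.3, ASPS-A1 against control, two-sided. P-values were adjusted by Benjamini-Hochberg over all 11686 genes, with a threshold of 0.05. The common biological coefficient of variation was 5.66%. Standard errors are the absolute log2 fold change over the root of the F statistic. Values in every library are given for genes called at 1.5-fold or more with groups that do not overlap, for Ulk1, Becn1, Atg5, Atg7, Map1lc3b and Sqstm1, and for the most abundant gene of each role. Up to 3 genes per direction, at 10 CPM or more, could be named from each neighbouring list by the size of their change. Prkab1, Prkag1, Rptor, Mlst8, Rragc, Akt1s1, Lamtor1, Lamtor2, Lamtor3, Ddit4, Sesn1, Sesn2, Tfeb, Mitf, Tfe3 and Nfe2l2 were named outside this rule. The genes and lists were chosen with earlier results of these data known.

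Alternatives were 3 other scalings, DESeq2 1.42.0, limma-voom (limma 3.58.1), 2 filters, a replicate block, leaving out each library, thinning, a fit without robust, glmTreat, and lowess offsets (span 0.3) for transcript length and GC content. Lengths, positions and exon overlaps came from the longest transcript and exons of GENCODE M21, found for 95.8% of tested genes. The values of 1 marker list are not reported here. No library was a copy of another: within groups, chi-square over its degrees of freedom was 4.21 to 6.80.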

Additional observations from a re-analysis of the deposited data

How the results depend on the processing

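With scaling by library totals alone 5 autophagy genes rose, beside 21.6% of all genes. With glmTreat against 1.5-fold 1 rose and 5 fell, beside 6.95% and 7.53% of all genes (812 and 880 genes). The median of the 40 genes was −0.16 with upper-quartile factors, −0.31 with library totals and 0.019 with the length and GC offsets, against −0.11. With totals the sign turned for Atg9a (−0.028), Atg4b (−0.19), Atg4d (−0.14), Atg7 (−0.0074), Atg10 (−0.020), Map1lc3b (−0.18) and Gabarapl1 (−0.15). With the offsets it turned for Rb1cc1 (0.018), Uvrag (0.097), Ambra1 (0.25), Wipi2 (0.12), Atg10 (−0.15), Nbr1 (0.096), Gabarapl1 (−0.14), Gabarapl2 (−0.049) and Epg5 (0.18). The cause was not tested.

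The log2 ratio differences after the offsets were −0.81 for Atg14/Uvrag, −0.57 for Wipi1/Wipi2, −0.060 for Atg4b/Atg4a, 0.16 for Map1lc3a/Map1lc3b, −0.086 for Gabarapl1/Gabarapl2 and 1.03 for Sqstm1/Nbr1. The log2 ratio of summed CPM turned to −0.060 for conjugation genes and −0.035 for all 40 with totals, and to −0.27 for receptors and −0.012 for all 40 without Sqstm1.

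Of the 29 calls, 15 (4 risen, 11 fallen) held in the same direction in all 17 alternatives other than glmTreat. They were Ulk1, Atg13, Becn1, Pik3r4, Atg14, Wipi1, Atg2a, Atg2b, Atg3, Atg4a, Atg4c, Atg16l1, Sqstm1, Tax1bp1 and Calcoco1. Leaving out each library in turn, 23 of the 29 held. With the replicate block 11 rose and 16 fell, beside 32.1% and 32.6% of all genes, and Map1lc3a and Atg101 lost their calls. Libraries with the same number did not deviate together (correlations −0.0138, 0.00709 and 0.00398). The labels give no pairing, and a shared culture or processing step was not tested. With DESeq2 10 rose and 14 fell, where 24.7% of all genes rose and 23.6% fell. Optn had 27 to 62 counts a library, Map1lc3a 71 to 98 and Atg10 94 to 162, the fewest of the 40 genes, and the part of depth in their errors was not tested.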
